A study of Mus musculus with 6 samples.

Results

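The 100 features most specific to mature astrocytes of the mouse suprachiasmatic nucleus (SCN), the hypothalamic clock, were followed through development by single-nuclei RNA sequencing (snRNA-seq). In this method the transcripts of a nucleus share a barcode, and a unique molecular identifier (UMI) on every transcript keeps PCR copies from being counted again. Tissue of wild-type C57BL6/J mice was collected before birth, at gestational day 17.5 (GD17.5), and on the postnatal days 2, 10 and 30 (PND2, PND10, PND30), and each stage was a pool of 10 animals, 5 males and 5 females. GD17.5 and PND2 had 1 library each, and PND10 and PND30 had 2 each, 6 in all, and the nuclei carried the cluster names the authors deposited. To find the members, UMIs of PND10 and PND30 nuclei were summed per cluster over 9 clusters and scaled to CPM, the UMIs of a feature per 1000000 UMIs of the cluster. Of 32285 features, 4119 reached 50 CPM in mature astrocytes, and the members are the 100 of these with the largest ratio, computed after adding 5 CPM, of mature astrocytes over whichever other cluster was highest.

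The files used here list features without gene names, so no feature could be named, the annotated cell types could not be checked against marker genes, and no sequence is given. Members are called by their rank, with rank 1 having the largest ratio. The measured values that chose the members are given only as a description. The ratio ranged from 6.29 to 29.9 with a median of 8.50, and the pooled level in mature astrocytes from 52.5 to 3917 CPM with a median of 192 CPM. At the border of the list, ranks 99 and 100 had ratios of 6.35 and 6.29, and the next features outside it had 6.26 and 6.25. The highest other cluster was microglia for 48 members, NG2 cells and oligodendrocyte progenitor cells (OPCs) for 28, mature oligodendrocytes for 11 and a neuronal cluster for the rest. In microglia the members held 0.178% and 0.236% of UMIs at PND10, with 27 and 48 nuclei. At PND30 they held 0.971% and 0.549% there, with only 8 and 34 nuclei. Of the pooled mature astrocyte UMIs, 71.3% came from PND10.

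Astrocytes arise from radial glial progenitors around birth, after most neurons have been born, and proliferate locally in the first postnatal weeks. As they mature they take up transmitters and ions at synapses, couple to each other through gap junctions and contact blood vessels, and the genes for these functions are switched on gradually. In the SCN, astrocytes also take part in circadian timekeeping. The question put to the members was therefore which of them were already present in the cluster annotated as immature astrocytes/ependymal cells, called immature astroglia below, before mature astrocytes appeared. Ependymal cells, which line the ventricle, cannot be told apart from immature astrocytes within that cluster.

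Immature astroglia comprised 489 nuclei at GD17.5, 664 at PND2, and 104 and 7 in the replicates of PND10. Mature astrocytes comprised 214 and 634 nuclei at PND10 and 80 and 390 at PND30, and 4 nuclei at PND2. Libraries held between 10921890 and 31389145 UMIs of annotated nuclei, with medians from 3144 to 12106 UMIs per nucleus. Any pair of libraries shared at most 9 barcodes of annotated nuclei, and the replicates of a stage shared 0. A stage with 1 library has no replicate, so differences between early stages are given as values with no test, and intervals cover counting error only.

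The members made up a small but clearly unequal share of all UMIs. In mature astrocytes they held 4.12% and 4.00% of UMIs at PND10 (4.06% ± 0.08, SD, n = 2) and 4.46% and 4.87% at PND30 (4.67% ± 0.29, SD, n = 2). An exact permutation test of 2 against 2 libraries cannot give a two-sided p below 0.333. In immature astroglia the share was 1.26% at GD17.5, 1.93% at PND2 and 1.32% in PND10 replicate 1. The 7 nuclei of PND10 replicate 2 gave 2.41%. Early SCN neurons of the same libraries, where transcripts of these features can come from free RNA, held 0.125% at GD17.5 and 0.135% at PND2. At GD17.5 and PND2 the share in immature astroglia thus lay above that of early SCN neurons. In each of its libraries it lay below that of mature astrocytes at PND10 and PND30, whose high share is partly fixed by the rule. Ranks 9, 17, 39, 84 and 24, the 5 with the highest level, carried 35.8% of all member UMIs in mature astrocytes.

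**Figure D1:**
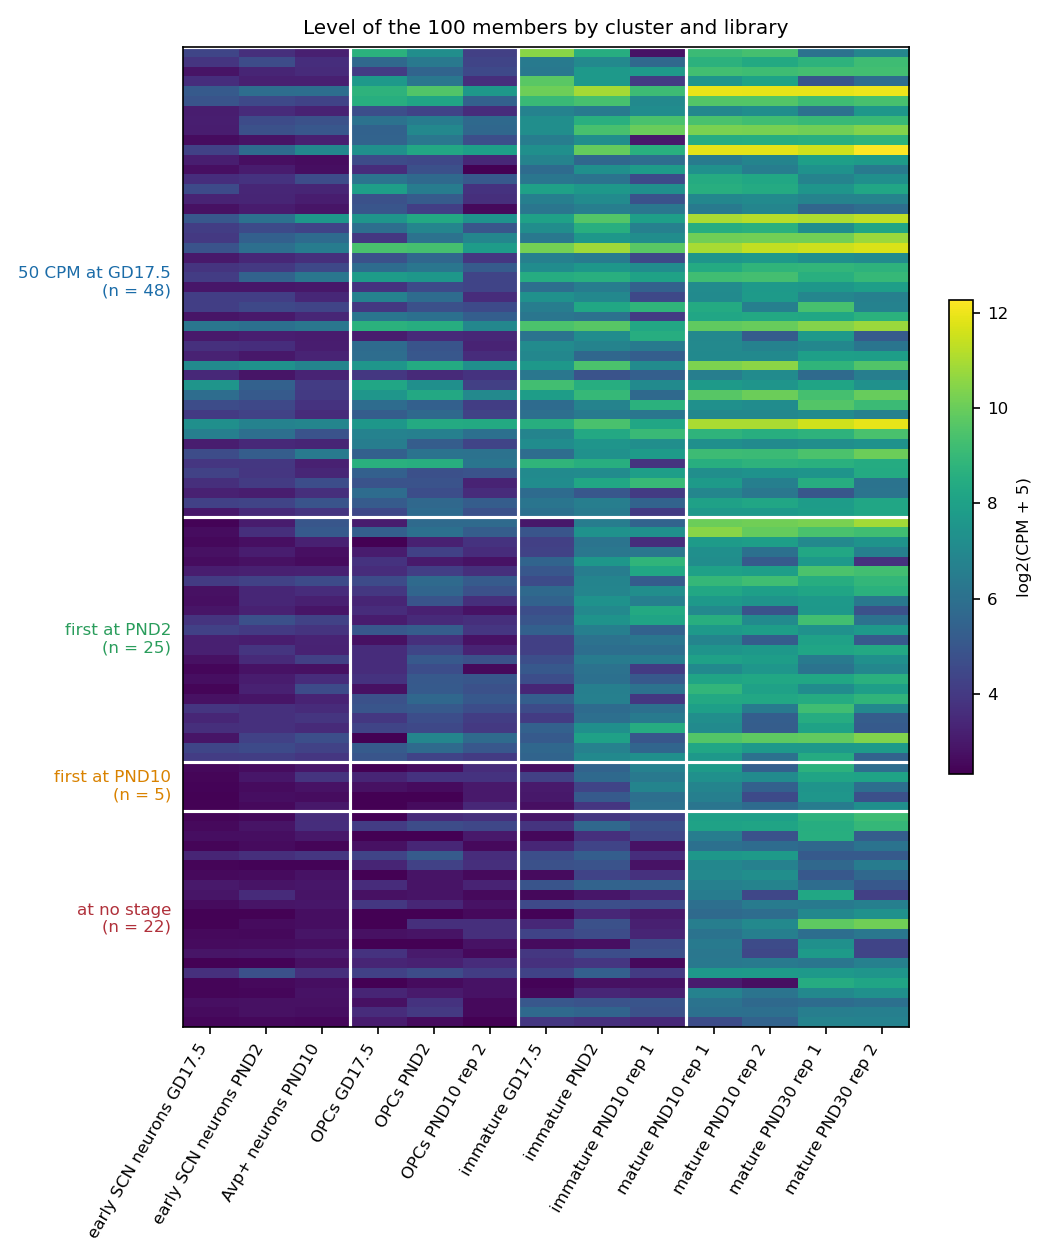
Level of each of the 100 members (rows) as log2(CPM + 5) in early SCN or Avp+ neurons, OPCs, immature astroglia and mature astrocytes (columns, by library), with members grouped by the first stage at which they reached 50 CPM in immature astroglia. The 48 members of the top block were already at that level at GD17.5, and the 22 of the bottom block stayed below it at GD17.5, PND2 and PND10.

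Counted at the 50 CPM that the list itself required in mature astrocytes, 48 of the 100 members were already present in immature astroglia at GD17.5, where 82.2% of the 4119 features reached that level. At PND2 it was 69 members against 86.6% of the features. At PND10, with both libraries summed, it was 53 members against 84.7%. In PND10 replicate 1 alone it was 52 members against 84.4%. The members were thus present less often than the 4119 features as a whole at each of these stages. They were chosen for low levels in other clusters, and the 4119 features were not. A lower share is therefore partly fixed by the rule and is given as a description, as are the counts by first stage below. In PND10 replicate 2, 63 members and 65.5% of features reached the level, but 50 CPM there corresponds to 1.17 UMIs, and this library is not read alone below. The exact Poisson interval of the level spanned 50 CPM for 10 members at GD17.5, 6 at PND2 and 13 in PND10 replicate 1.

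By the first stage at which they reached 50 CPM in immature astroglia, 48 members were present at GD17.5, 25 appeared first at PND2 (7.45% of all 4119 features did so) and 5 first at PND10 (3.71%). The other 22 members were at that level at no stage (6.63%). Presence in the cluster was not always kept: 30 members were at 50 CPM throughout these 3 stages (74.1% of features), and 22 were so at PND2 and not at PND10 (7.14%). Whether the make-up of the cluster changed between stages was not tested. The pooled mature level, which the rule used, is given as a description. It had a median of 305 CPM in the group present at GD17.5, 209 CPM in the group first present at PND2, 77.3 CPM in the group first present at PND10 and 80.9 CPM in the group at no stage. Groups cut at a fixed level follow in part the overall level of a feature.

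Over all members, the median level in immature astroglia was 46.4 CPM at GD17.5, 90.8 CPM at PND2 and 56.3 CPM in PND10 replicate 1. Relative to the pooled mature level of the same member, the median at GD17.5 was 19.6%, that at PND2 38.0% and that at PND10 24.2%, whereas the 4119 features lay at 105%, 103% and 104%. Since the rule chose the members for a high mature level, a low percentage is partly fixed by that choice and is given as a description. The order of the members was largely shared between the early stages, with a Spearman correlation of 0.82 between GD17.5 and PND2 across the 100 members, which are not independent. Across the same members, the level at PND2 correlated with the pooled mature level at 0.72, and the level at GD17.5 at 0.54.

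**Figure D2:**
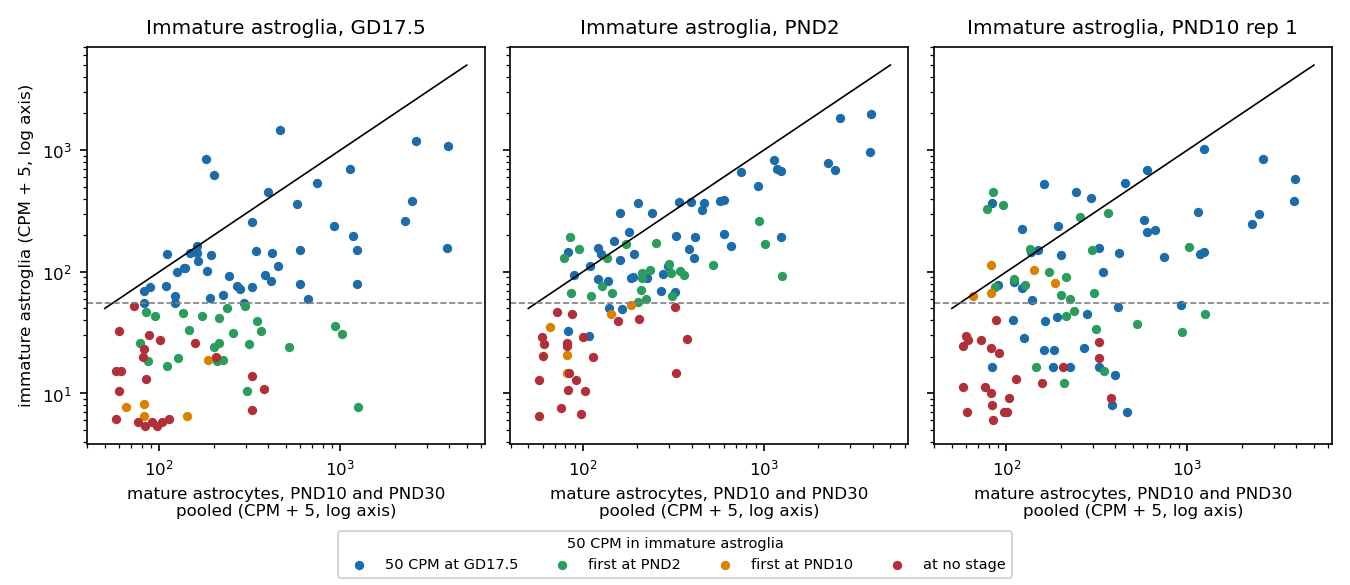
Level of each member in immature astroglia at GD17.5, PND2 and PND10 replicate 1 (y axis, CPM + 5) against its pooled level in mature astrocytes (x axis, CPM + 5), both on log axes, with colours for the first stage at 50 CPM. The solid line marks equal levels and the dashed line 50 CPM, and most points lie below the solid line, with a median level of 38.0% of the mature level at PND2.

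To set aside what free RNA could give, the level in immature astroglia was compared with that in neurons of the same library, namely early SCN neurons at GD17.5 and PND2 and Avp+ neurons at PND10. At GD17.5, 39 members were at 50 CPM or more and at least 4-fold above neurons, against 6.48% of the 4119 features. At PND2 it was 69 members, as many as were present at all, against 9.37%. At PND10 it was 43 members against 9.03%. The median ratio over neurons at the successive stages was 3.92, 7.45 and 3.96, while over all features it was 1.17, 1.19 and 1.13. Neurons of the same libraries had median member levels of 3.72, 5.60 and 5.75 CPM. The rule itself required Avp+ neurons at PND10 to be low, so the PND10 values are partly fixed by it and are given as a description. Early SCN neurons were not among its clusters, but neuronal clusters of PND10 and PND30 were. A low level of the members in early SCN neurons may thus be partly fixed by the rule as well. The 4119 features were not chosen for a low level in neurons, so the comparisons with them are given as a description at every stage.

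The same course was seen in single nuclei. Each nucleus was thinned to 1500 UMIs, so that depth was equal, and nuclei with fewer were left out. The members then held a median of 16 UMIs per nucleus in immature astroglia at GD17.5 (474 nuclei), 28 at PND2 (657 nuclei) and 18 in PND10 replicate 1 (104 nuclei). In the mature astrocyte libraries the medians were 62 and 59 (PND10) and 74 and 73 (PND30), and early SCN neurons had 2 UMIs at both early stages. The median number of different members with a UMI was 10, 17 and 13 per immature nucleus at GD17.5, PND2 and PND10 and between 28 and 31 per mature astrocyte.

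Few immature nuclei carried as many member UMIs as mature astrocytes did. A limit of 46 UMIs, the 10th percentile of mature astrocytes, was reached by 0.844% of immature nuclei at GD17.5 (exact Clopper-Pearson 95% interval 0.230 to 2.15%). At PND2 it was reached by 10.2% of them (7.99 to 12.8%), with 84 nuclei within 5 UMIs of the limit. In PND10 replicate 1 it was reached by 0 of 104 nuclei (interval 0 to 3.48%), and a limit of 3 counts for a count of 0 allows up to 2.88%. Nuclei at PND2 therefore formed a range, and the limit does not define a cell type. The rule chose the members from these mature nuclei, so their high counts per nucleus and the limit itself are partly fixed by that choice.

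**Figure D3:**
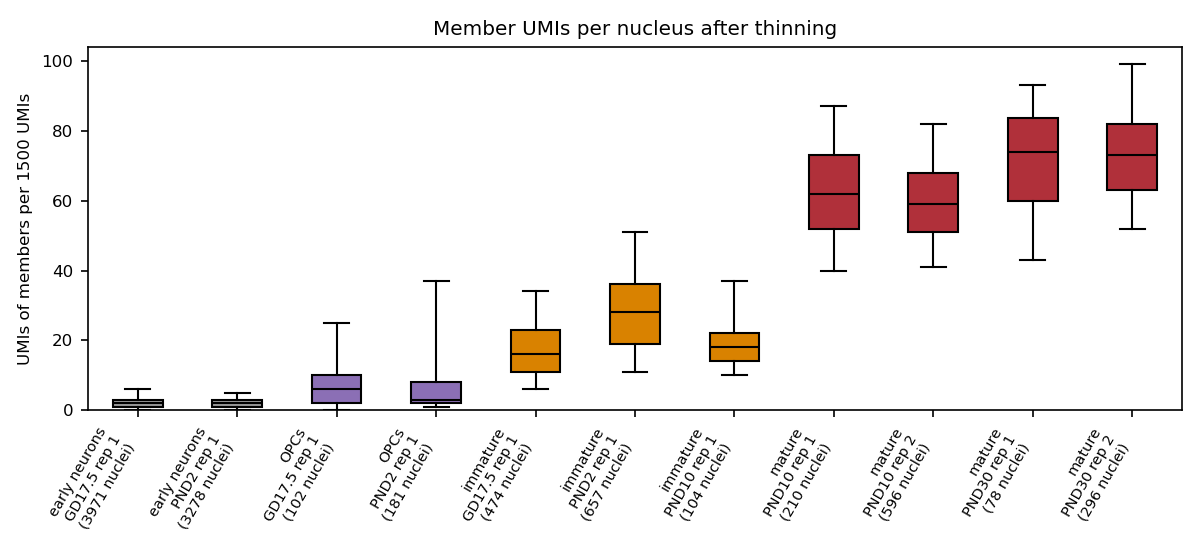
UMIs of the 100 members per nucleus after thinning to 1500 UMIs (y axis), by cluster and library (x axis, with the number of nuclei). Boxes give the quartiles and median, and whiskers run from the 5th to the 95th percentile. Immature astroglia have medians of 16, 28 and 18 UMIs, between early neurons at 2 and mature astrocytes at 59 to 74.

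Detection of single members was sparse. After thinning, a member had a UMI in a median of 5.49% of immature nuclei at GD17.5, 11.9% at PND2 and 7.69% in PND10 replicate 1 (16.0%, 30.3% and 25% without thinning). In early SCN neurons the medians were 0.491% and 0.946%, and in Avp+ neurons of PND10 replicate 1 1.17%. Mature astrocytes had medians from 20.2% to 21.5% in their 4 libraries.

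Among the members present at GD17.5, rank 1 stood out by falling levels. In immature astroglia it had 1464 CPM at GD17.5, 359 CPM at PND2 and 2.07 CPM in PND10 replicate 1, where 2 UMIs were counted. The 7 nuclei of PND10 replicate 2 held 3 UMIs of it. In mature astrocytes it had 551 and 650 CPM at PND10 and 62.7 and 113 CPM at PND30. It was thus highest in immature astroglia before birth and, at PND10, was found in mature astrocytes and hardly in immature nuclei of the same library. Rank 7 had the same course, with 842, 206 and 11.4 CPM in immature astroglia and 176, 266, 27.1 and 53.4 CPM in mature astrocytes.

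Rank 4 was present early at a modest level. It had 79.6, 125 and 46.5 CPM in immature astroglia and 420.3, 325, 425 and 577 CPM in mature astrocytes. Rank 6 had 74.9, 200.1 and 207 CPM in immature astroglia and between 571 and 624 CPM in mature astrocytes. Rank 9, the member with the highest pooled level, had 1074, 1966 and 569 CPM in immature astroglia, against 3793 to 4194 CPM in mature astrocytes. Rank 17 reached almost the same mature level, 3021 to 4963 CPM, from 151 CPM at GD17.5 and 967 CPM at PND2.

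Of the group first present at PND2, ranks 2, 3 and 5 were below 50 CPM at GD17.5 by differing margins. Rank 2 had 2.74 CPM at GD17.5, 87.7 CPM at PND2 and 40.3 CPM in PND10 replicate 1 in immature astroglia, and 1058, 1119, 1248 and 1911 CPM in mature astrocytes. Rank 3 had 25.9, 164 and 156 CPM in immature astroglia, and 1457, 960.0, 683 and 593 CPM in mature astrocytes. Rank 5 had 13.3, 65.9 and 7.24 CPM in immature astroglia, and 214, 234, 123 and 169.8 CPM in mature astrocytes. For all of them the immature level stayed below the lowest mature library. After thinning, rank 2 had a UMI in 0.211% of immature nuclei at GD17.5, 11.1% at PND2 and 71.9% of mature astrocytes in PND10 replicate 1. In early SCN neurons of the same libraries it had a UMI in 0.101% and 0.61% of nuclei.

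The members first present at PND10 were few and low. Rank 8 had 1.57, 39.8 and 98.2 CPM in immature astroglia, rank 28 had 13.7, 48.1 and 75.5 CPM, and rank 38 had 3.14, 15.8 and 109 CPM. Each was higher at each later stage, and rank 28 missed the level at PND2 by a margin within its counting interval. In mature astrocytes rank 8 had 212, 36.9, 415 and 53.4 CPM, rank 28 had 157, 136, 274 and 268 CPM, and rank 38 had 107, 36.5, 174 and 55.5 CPM. Rank 38 was therefore no higher in mature than in immature astroglia of PND10 replicate 1.

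Of the 22 members at no stage at 50 CPM, rank 16 had the largest ratio. It had 2.35, 9.83 and 14.5 CPM in immature astroglia, and 248, 244, 415 and 579.5 CPM in mature astrocytes. Rank 26 had 9.01, 46.0 and 21.7 CPM in immature astroglia, and 263, 279.7, 363 and 486 CPM in mature astrocytes. Rank 29 had 0.784, 8.02 and 16.5 CPM in immature astroglia, and 88.0, 23.2, 370.5 and 33.5 CPM in mature astrocytes. These 22 members had medians of 8.62, 17.6 and 7.75 CPM in immature astroglia. Their ratio over neurons at PND2 had a median of 3.19, against 11.5 in the group present at GD17.5. The groups were cut by the immature level, so this difference is partly fixed by the grouping.

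**Figure D4:**
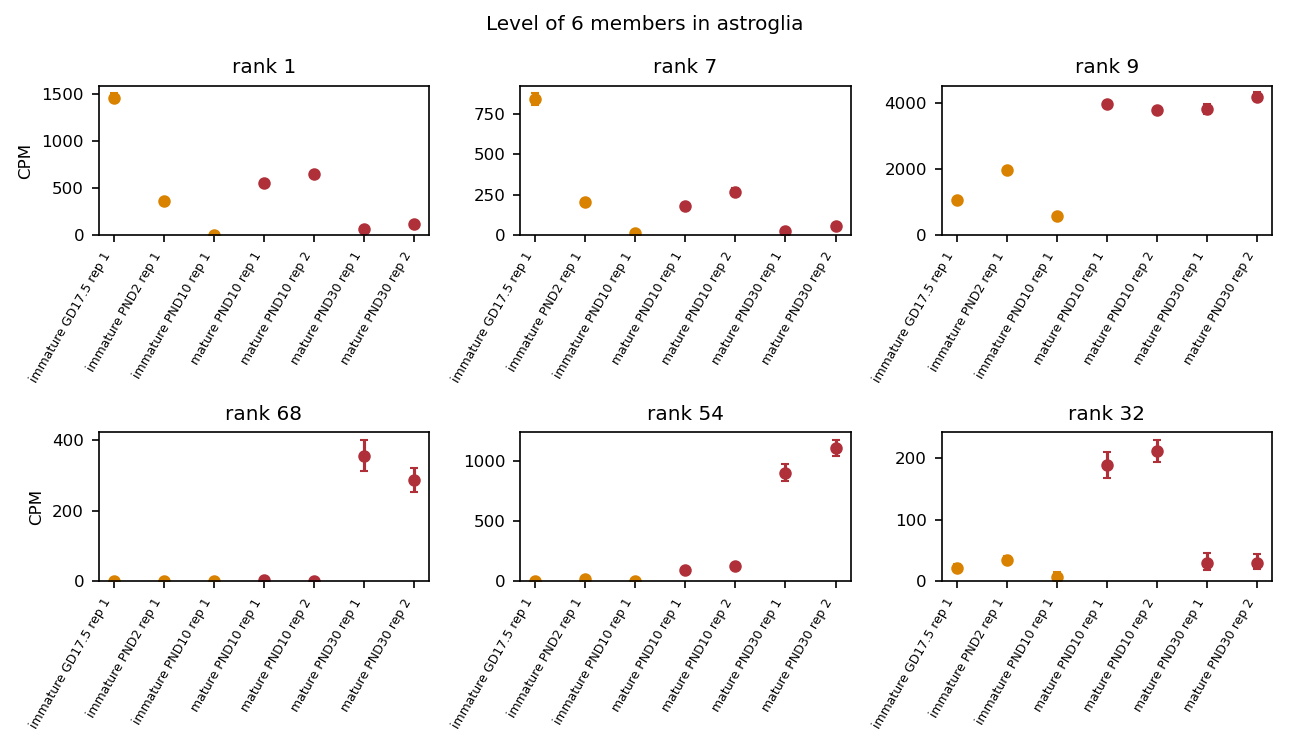
Level (CPM, linear axes) of ranks 1, 7, 9, 68, 54 and 32 in immature astroglia (orange) and mature astrocytes (red) by library, with exact Poisson 95% intervals as bars. Ranks 1 and 7 are highest at GD17.5, rank 9 is highest in mature astrocytes, and rank 68 is at 3.52 CPM or less outside the PND30 libraries.

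Between GD17.5 and PND2, levels in immature astroglia were more often higher at the later stage. At least 2-fold higher at PND2 were 52 members (7.48% of the 4119 features), and at least 2-fold lower were 5 (1.94%), namely ranks 1, 7, 18, 72 and 75, which are named after their values were seen. From PND2 to PND10 replicate 1 the balance was the other way, with 10 members at least 2-fold higher (4.13%) and 39 at least 2-fold lower (9.86%). Rank 89 fell in the latter set with 447 CPM at GD17.5, 373 CPM at PND2 and 9.31 CPM in PND10 replicate 1, although mature astrocytes of that library had 373 CPM. After thinning, 38 members were lower. The cluster held 664 nuclei at PND2 and 104 in PND10 replicate 1, and the part of a changed make-up of it was not tested.

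Within PND10 replicate 1 both astroglial clusters could be compared in 1 library. At least 4-fold higher in mature astrocytes were 46 members (5.68% of features), and 14 members were higher in immature astroglia (53.8%). The highest of these 14 relative to its mature level was rank 25, with 452 CPM in immature astroglia and 141 CPM in mature astrocytes. Rank 12, with 687 and 679 CPM, was near equality, and rank 13 had 1019 and 1238 CPM. These ranks were chosen after their values were seen. The rule had left immature astroglia out of the other clusters, and it had used the mature astrocytes of this library to choose the members. A higher mature level is therefore partly fixed by that choice, and these counts are given as a description. The median member in immature astroglia had 27.2% of its mature level in this library.

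OPCs, the other glial progenitor, also held members early when their UMIs were summed. At GD17.5, 27 members were at 50 CPM in OPCs (77.6% of features), and 20 of these 100 members were at 50 CPM and 4-fold above neurons (4.03%). At PND2 the counts were 29 (74.6%) and 20 (4.13%). Early SCN neurons had 6 members at 50 CPM at GD17.5 (71.0%) and 8 at PND2 (69.9%). The members were chosen for low levels in OPCs and neurons of PND10 and PND30, and the features beside them were not. These counts may therefore be partly fixed by the rule and are given as a description. Rank 1 had 406 CPM in OPCs at GD17.5 and 147 CPM at PND2, and rank 89 had 397 and 373 CPM. The member share of OPC UMIs was 0.621% at GD17.5 and 0.707% at PND2, both below immature astroglia of the same library, and between 0.222% and 0.312% in the 4 later libraries, where the rule itself required OPCs to be low. Thinned to 1500 UMIs, OPC nuclei had a median of 6 member UMIs at GD17.5 (upper quartile 10, highest 45) and of 3 at PND2 (upper quartile 8, highest 48), against 2 in early SCN neurons. The nuclei above the upper quartile, 25 nuclei at GD17.5 and 45 at PND2, held 60.2% and 75.8% of the member UMIs of OPCs, against 38.1% and 38.3% for immature astroglia above their own upper quartile. The summed levels of OPCs were thus carried mostly by a minority of nuclei.

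Between PND10 and PND30, mature astrocytes were compared across 2 libraries each with edgeR's quasi-likelihood test over 12145 features, all 100 members included. The libraries of a stage may come from the same pool of animals, so these p-values measure only the spread between the samples. At an adjusted p under 0.05, 1 member was higher at PND30, where 2 features or 0.0165% of all tested were called, and 0 members were lower (0.0%). With the replicate number as a block in the model, 465 features (3.83%) and 27 members were called, 16 higher and 11 lower. Over the alternatives the number of members called ranged from 0 to 27. The member called higher in the main edgeR test, which had no block, was rank 68, matrix row 5489. It had 3.52 CPM (6 UMIs) and 1.66 CPM (4 UMIs) at PND10, against 355 CPM (249 UMIs) and 286 CPM (273 UMIs) in the PND30 libraries, so that the stages did not overlap. Its log2 fold change was 6.99 (SE 0.35) with an adjusted p of 0.0387 in edgeR. It had at most 2.07 CPM in immature astroglia at GD17.5, PND2 and PND10 replicate 1. Rank 68 reached the rule's floor of 50 CPM, at 92.2 CPM pooled, only through PND30. Its membership thus required a higher level at PND30. Without PND10 replicate 2 its adjusted p was 0.0967, the highest over the alternatives, whose lowest was 6.5e-61.

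No other member passed in that main test. Of the alternatives with all libraries and no block, upper quartile normalization called 1 member, equal nuclei 7, DESeq2 14 and no low-count filter 23. Values are given for the second higher member and the first 2 lower members by p. Rank 54, matrix row 23862, had 91.0 and 124 CPM at PND10 and 903 and 1108 CPM at PND30, a log2 fold change of 3.25 (SE 0.25) with an adjusted p of 0.0559 in edgeR (7.27e-26 to 0.283 over the alternatives). Rank 32, matrix row 18671, had 188 and 210.4 CPM at PND10 and 29.9 and 30.4 CPM at PND30, a log2 fold change of -2.70 (SE 0.20) with an adjusted p of 0.0559 in edgeR (7.21e-14 to 0.405). Rank 1, matrix row 6253, had a log2 fold change of -2.73 (SE 0.33) with an adjusted p of 0.0953 in edgeR (1.71e-18 to 0.477). In each of these members the libraries of the stages did not overlap, and the adjusted p was under 0.05 in 5 of 9 alternatives for rank 54, in 4 for rank 32 and in 5 for rank 1. Rank 32 lay below the rule's floor of 50 CPM in both PND30 libraries and passed it, at 152 CPM pooled, only through PND10. Its membership thus required a higher level at PND10, and its fold change is partly fixed by the rule. At an unadjusted p under 0.05 in edgeR there were 18 members higher (4.76% of all features) and 11 lower (4.49%) at PND30. DESeq2 called 8 members higher (0.708%) and 6 lower (0.502%).

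Both PND30 libraries lay above both PND10 libraries for 27 members (18.1% of features) and below them for 25 (22.2%), and the stages overlapped for the other 48. Some members were below the floor of 50 CPM in both libraries of 1 stage and passed it through the other stage. Examples are ranks 68 and 97, which passed through PND30, and ranks 32 and 41, which passed through PND10. The counts here and at an unadjusted p, and the sizes below, are therefore partly fixed by the rule and given as a description. The median log2 fold change was 0.25 over the members and 0.02 over all features, and the median size without sign was 0.60 against 0.29. Without PND30 replicate 1 the median over the members was -0.16. Grouped by presence in immature astroglia, the median was 0.08 for the 48 members present at GD17.5 and 0.37 for the 25 first present at PND2. It was 0.91 for the 5 first present at PND10 and 0.67 for the 22 at no stage. Of the 16 members described below as differing between replicates, these groups held 3, 7, 2 and 4. The group medians were not recomputed without single libraries.

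**Figure D5:**
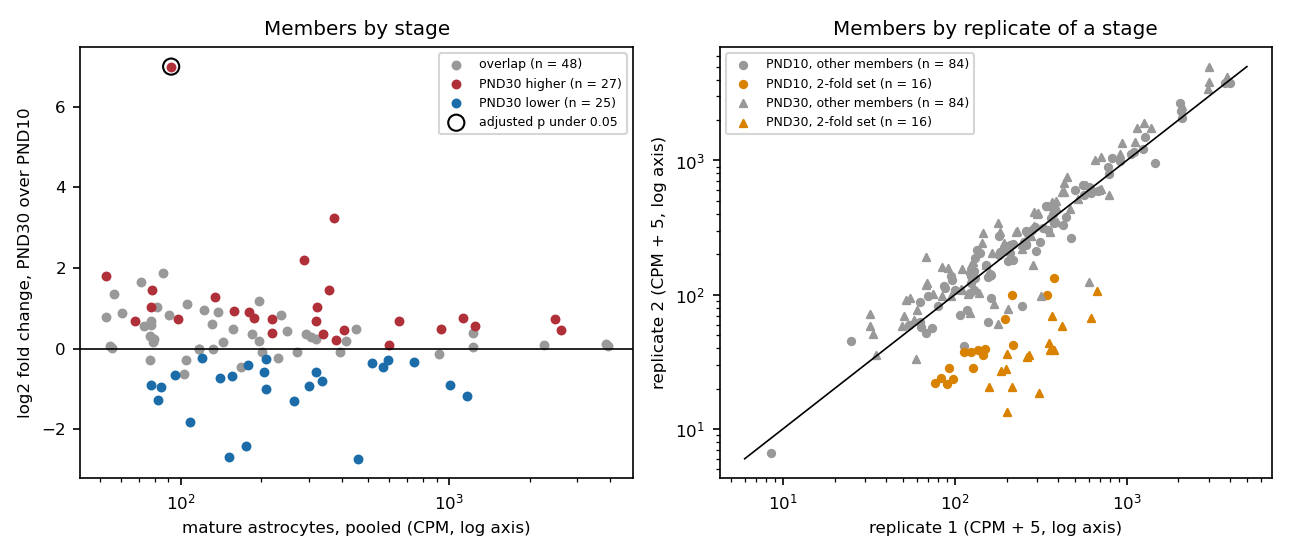
Left, log2 fold change of each member in mature astrocytes, PND30 over PND10 (y axis), against its pooled level (x axis, CPM, log axis), coloured by whether the stages overlap. Right, level in replicate 2 against replicate 1 of a stage (CPM + 5, log axes, with a line of equality), where the 16 members at least 2-fold above in both replicate 1 libraries are orange.

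Some members differed between the replicates of a stage more than between stages. In mature astrocytes, 16 members had both replicate 1 libraries, of PND10 and of PND30, at least 2-fold above both replicate 2 libraries (2.06% of the 4119 features), and 0 members had the reverse (0.0%). Rank 25 was one of them, with 141 and 30.7 CPM at PND10 and 197 and 8.38 CPM at PND30. Rank 8 was another, with 212 and 36.9 CPM at PND10 and 415 and 53.4 CPM at PND30. The rule's floor of 50 CPM was set on pooled UMIs. Members below it in both replicate 2 libraries, such as rank 25, therefore passed it through replicate 1, and the count of 16 is given as a description. Over the 16 members, the median was 127 CPM in replicate 1 and 32.4 CPM in replicate 2 of PND10, and 284 and 30.9 CPM in those of PND30. Over the other 84 members it was 208 and 210.4 CPM, and 223 and 236 CPM. This pattern was noticed in the data, and its alternatives were chosen after that. With a ratio of 4 it held for 3 members, and after thinning for 12.

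The same 16 members were relatively high in immature astroglia of PND10 replicate 1, with a median of 124 CPM against 44.5 CPM for the other 84. At the earlier stages they were not, with 17.2 against 52.5 CPM at GD17.5 and 93.6 against 90.8 CPM at PND2. Their median level there was 69.6% of that in mature astrocytes of the same library, against 17.5% for the others. That library held 104 immature nuclei and PND10 replicate 2 held 7. In Avp+ neurons the medians of the 16 were 5.45 and 2.68 CPM at PND10 and 4.22 and 3.34 CPM at PND30. The replicates also differed in depth, with medians of 7326 and 3554 UMIs per mature astrocyte in replicates 1 and 2 of PND10, and of 7220 and 2201 in those of PND30. The part of any nuclei of the immature cluster, of depth or of preparation in this pattern was not tested.

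The list depended in part on the stage. The same rule applied to PND10 alone and to PND30 alone gave lists that shared 45 of 100 features. Of the list from PND10, the median ratio over the highest other cluster at PND30 was 5.12, and 64 of 100 were at least 4-fold above it, while the median of all 4119 features was 0.707. Of the list from PND30, the median ratio at PND10 was 5.34, and 71 were at least 4-fold above, against 0.651. The lowest ratio in the other stage was 1.33 for the PND10 list and 0.426 for the PND30 list, of which 97 were above 1 and 77 reached 50 CPM at PND10.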

How the data were processed

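The authors made libraries with 10x Genomics 3' v3.1 chemistry, counted UMIs with Cell Ranger 5.0.1 on mm10 and annotated nuclei with Seurat 4. They deposited raw UMI counts per feature and barcode without normalization, and removed doublets and nuclei under 750 UMIs before annotation. Per the methods, the PND10 and PND30 libraries were prepared and sequenced again after a first run. Of 22796 annotated nuclei, 22790 were placed in 1 library by barcode. Counts were summed per cluster and library and scaled to CPM. Mature astrocyte sums were tested with edgeR 4.0.16 (TMM, filterByExpr, quasi-likelihood, Benjamini-Hochberg adjustment) in R 4.3.3. DESeq2 1.42.0, upper quartile normalization, no filter, a replicate block, equal nuclei and leaving out libraries were alternatives. Scripts were tested on simulated counts. Other steps ran in Python 3.11.15 (numpy 2.4.6, scipy 1.17.1 for intervals). Members and lists were chosen with earlier results of these data known. Features described singly were the first 3 in rank of each presence group and, by row, up to 2 higher and 2 lower at PND30 by smallest p. Ranks 7, 9, 12, 13, 17, 25 and 89 were added after their values were seen.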

Additional observations from a re-analysis of the deposited data

Results flagged for a closer look

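The 4 nuclei annotated as mature astrocytes at PND2, which enter no comparison, held a member share of 3.48% of their 13489 UMIs (exact 95% interval 3.17 to 3.8%), against 1.93% in immature astroglia of that library and 0.135% in its early SCN neurons. The 9 endothelial nuclei of GD17.5 had a member share of 0.652%, and the 16 of PND2 had 0.776%, above early SCN neurons at 0.125% and 0.135%. These clusters were outside the rule or the comparisons.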

How the results depend on the processing

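With PND30 libraries only, 64 of the 100 members stayed in the list, and with immature astroglia among the other clusters 50. With unidentified neuronal cells and endothelial cells among the other clusters, 72 stayed. At a level of 100 CPM, 28 members were present at GD17.5 and 45 at PND2, and at a ratio of 8 over neurons 45 at PND2. The member share of immature UMIs at GD17.5, PND2 and PND10 was 1.10%, 1.90% and 1.19% as a median over nuclei, and 0.962%, 1.31% and 1.10% without the 5 highest members. Thinned, it was 1.17% at GD17.5, and without 1 replicate 1.32% to 2.41% at PND10. In mature astrocytes it was 2.64% at PND10 and 2.97% at PND30 without those 5. Features and members called between PND10 and PND30 were 147 and 14 with DESeq2, 1 and 1 with upper quartile normalization, 370 and 23 without a low-count filter, and 35 and 7 with equal numbers of nuclei. Leaving out 1 library gave 0 to 83 features and 0 to 8 members, with the 83 and 8 without PND30 replicate 1 and the 0 without PND10 replicate 2, where 415 features had an unadjusted p under 0.05 in edgeR. A replicate block gave calls for 465 features and 27 members. Same-numbered libraries deviated together (correlation 0.560 across 12145 features), but the labels do not state what the number shares. With a ratio of 4 between replicates, chosen after seeing the data, the 16 members became 3. The cause of these shifts was not tested. In PND10 replicate 2 the immature cluster is limited by its 7 nuclei.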

Other observations

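Among the 100 members, 4 pairs lay in consecutive rows of the count matrix, namely ranks 1 and 7, 12 and 19, 17 and 30, and 33 and 42. Both members of the first pair were highest in immature astroglia at GD17.5 (1464 and 842 CPM) and low in PND10 replicate 1 (2.07 and 11.4 CPM). In the pair of ranks 17 and 30 the levels in mature astrocytes were far apart, 3021 to 4963 CPM against 45.6 to 63.9 CPM. The files used here do not pair rows with genes, so whether reads of neighbouring or overlapping genes were divided between the rows of a pair was not tested.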
